A study of Mus musculus with 9 samples.

Results

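The preparation from dissociated trigeminal ganglia held a population of erythroid cells, the nucleated precursors and immature forms of the red blood cell. A cell barcode was counted as erythroid when it had between 200 and 8500 genes with a UMI (unique transcript), a UMI of at least 2 of the 6 genes Hemgn, Icam4, Rhd, Tal1, Kel and Alas2, fewer than 2 of the 5 progenitor genes Car1, Vamp5, Pbk, Cox6b2 and Myb, and at most 2 of the 6 neuronal genes Tubb3, Scn9a, Snap25, Nefl, Nefm and Uchl1. The members were thus chosen by measured UMIs of these 17 genes, whose levels are given as a description. This rule found 328 barcodes, which were 5.07% of the 6464 barcodes within the gene limits and 4.69% of all 6997 barcodes.

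Ganglia were taken from wild type FVB/N mice, aged 3 to 6 weeks by the labels and of both sexes, for 9 Dropseq runs that each pooled many animals. Dropseq captures single cells in droplets and counts the transcripts of each cell by their 3′ ends. The preparation was made for neurons, with a Percoll gradient and a depletion kit that removed other cells. The share of erythroid cells is therefore that of the preparation only. Whether these cells lay in the ganglia or came from outside them was not tested. There was no treatment or second genotype, and the barcodes do not name their run. All barcodes were therefore handled as 1 pooled sample, no test between groups of cells was possible, and the intervals given below cover counting error only. The deposited table holds 30491529 UMIs over 21536 genes, and every barcode has at least 1000 UMIs. Erythroid barcodes had a median of 1390 UMIs, with a range of 1000 to 5014, and a median of 453.5 genes.

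Red blood cells arise from dividing progenitors through a series of erythroblasts that fill with haemoglobin, condense and expel the nucleus, and leave a reticulocyte that clears its mitochondria and ribosomes. Haem is made by a chain of enzymes that begins with Alas2, iron enters through the transferrin receptor Tfrc, and the membrane is held by a skeleton of spectrin and ankyrin. The transcription factors Gata1, Tal1 and Klf1 drive this programme, and Gata1 is known to bind the motif GATAA.

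The promoters of the 6 genes that define the population are shown because these genes are markers of one programme. Promoters were taken from RefSeq (GRCm38.p6) as 250 bases before to 50 bases after each gene start. All 6 genes had a promoter in the table, 7 promoters in all, and GATAA or its reverse complement TTATC lay in 6 of the 7 promoters and in at least 1 promoter of each of the 6 genes, against 25.4% of the 32851 promoters searched. The 30 bases around a match before the start used by this RefSeq table, 5′ to 3′ on the strand of the gene with the motif in capitals, read as follows.
Hemgn, chr4:46404178-46404207, minus strand: cctgtgcagtgtGATAAagaaagtggaatt
Tal1, chr4:115056209-115056238, plus strand: ctatagagtcttTTATCtttgagcaattcc
Rhd, chr4:134864482-134864511, plus strand: ccggcagcctgaGATAAgacctttggcggg
Kel, chr6:41704326-41704355, minus strand: tgttccctcactGATAAgcaggctccaccc
Icam4, chr9:21029377-21029406, plus strand: cagggtgccttcTTATCtcctgcggccagc
Alas2, chrX:150547319-150547348, plus strand: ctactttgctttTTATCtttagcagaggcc
The centre of the motif lay between 10 bases (Hemgn) and 203 bases (Tal1) before the RefSeq start, and a second copy lay before the start of Kel. The GENCODE gene models of Hemgn and Icam4 begin upstream of the motif shown, so that it lies inside those models, and that of Kel begins at its last base. The motif CACCC, with its reverse complement GGGTG, lay in 5 of the 7 promoters, against 57.5% of all promoters. A match describes the sequence and is not a measured binding site.

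Levels are given as CPM, the UMIs of a gene per 1000000 UMIs outside the 10 haemoglobin genes of the table, summed over the barcodes of a group. Alas2, the rate-limiting enzyme of erythroid haem synthesis, had a UMI in 296 of the 328 erythroid barcodes (90.2%) and reached 4347 CPM (95% Poisson interval 4103 to 4602). Rhd, an Rh blood group protein, had a UMI in 266 barcodes and Hemgn, a nuclear protein of blood cells, in 256. The transcription factor Tal1 was seen in 141, the Kell antigen Kel in 122 and the Landsteiner-Wiener antigen Icam4 in 109. The 3775 barcodes with at least 4 of the 6 neuronal genes, called neurons here, were deeper, at a median of 3194 UMIs. There a UMI was seen in 7.81% for Alas2, 0.530% for Rhd, 0.344% for Hemgn and 0.0530% for Icam4. Alas2 was thus the least specific of the 6 genes to these barcodes by its share in neurons.

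Just inside the threshold, 69 barcodes had exactly 2 of the 6 genes, while 86 had 3, 96 had 4, 52 had 5 and 25 had all 6. Just outside it, 271 barcodes within the gene limits, with fewer than 2 progenitor genes and at most 2 neuronal genes, had exactly 1 of the 6 genes, and haemoglobin took a median of 17.8% of their UMIs. Another 69 barcodes met the erythroid minimum but had more than 2 neuronal genes, with a median haemoglobin share of 15.2%, and 73 had at least 2 progenitor genes, with a median share of 14.3%. All 3 of these shares were well under the median of the erythroid barcodes given below.

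Markers of other cells were looked for in the erythroid barcodes, since no doublet caller was run. Neuronal genes had a UMI in 198 barcodes, of which 52 had 2 of the 6, and summed to 1115 CPM against 15849 CPM in neurons. Growth hormone (Gh), a pituitary gene, had a UMI in 248 erythroid barcodes (75.6%) and in 45.5% of neurons, and stood at 5756 CPM against 19925 CPM in the remaining barcodes. Glial genes had a UMI in 80 barcodes and olfactory genes in 23. Genes of other blood cells were rare, with a UMI of 5 megakaryocyte genes in 10 barcodes, of 6 precursor B cell genes in 7, of 6 granulocyte genes in 5, of 5 T cell genes in 4, of 6 macrophage genes in 2 and of the mast cell gene in 0 of 328, which allows a share of barcodes with a UMI of up to 0.915% and sets no limit on the cells that express it. In 8 barcodes (2.44%) the markers of other cells took at least 5% of the UMIs outside haemoglobin. One of them held 913 UMIs of pituitary genes and another 620 UMIs of glial genes. No erythroid barcode was among the 6 barcode names that occur more than once.

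The haemoglobin genes were not part of the rule, and they took 47.0% of all UMIs of the erythroid barcodes. Over single barcodes the share had a mean of 47.7% ± 17.3 (SD, n = 328 barcodes) and a median of 51.1%, with quartiles of 39.6% and 59.9% and a range of 0.262% to 82.6%. The barcode at 82.6% had 207 genes, near the minimum of 200. Below that minimum 31 barcodes met the rest of the rule at a median share of 84.4%, so the top of the range depends on the minimum. The share was between 40% and 60% in 162 barcodes, above 60% in 82 and under 10% in 14. By contrast the median was 1.07% in the 148 dividing progenitors, 0.614% in 98 precursor B cells and 0.185% in neurons. The progenitors spread widely, however, with an upper quartile of 14.4% and a highest share of 63.5%. Those 69 progenitors that also had at least 2 erythroid genes had a median of 14.5%. Of the 5904 remaining barcodes, which had fewer than 2 erythroid and fewer than 2 progenitor genes, 208 (3.52%) had a share of at least 20%.

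**Figure D1:**
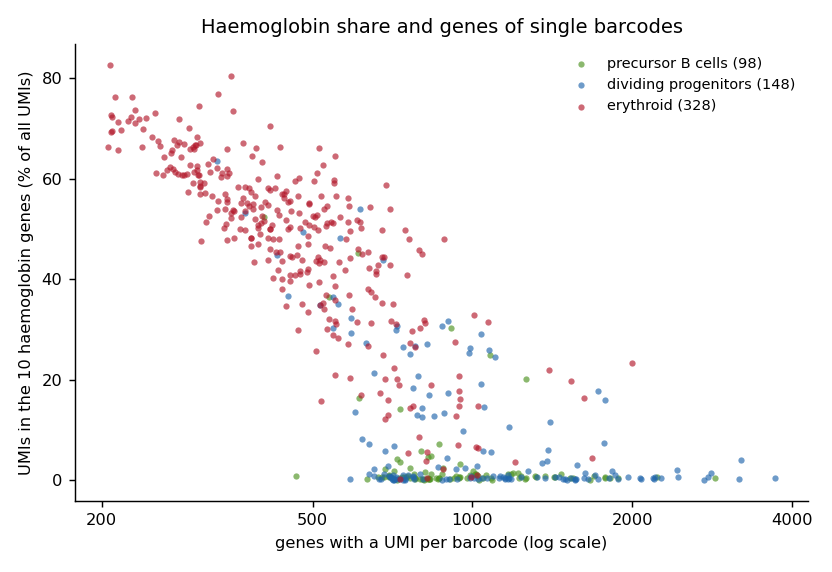
Share of UMIs in the 10 haemoglobin genes (y axis, % of all UMIs) against genes with a UMI (x axis, log scale), with 1 point per barcode for 328 erythroid, 148 dividing progenitor and 98 precursor B cell barcodes. Erythroid barcodes spread from 0.262% to 82.6% and those with high shares had few genes, whereas most progenitor and B cell barcodes lay near the bottom.

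Adult haemoglobin made up nearly all of this signal. The adult β-globin Hbb-bs had 138823 UMIs and was seen in all 328 erythroid barcodes, the adult α-globin Hba-a1 had 69411 UMIs and the second adult β-globin Hbb-bt had 32858 UMIs. Hba-a2, a near-identical copy of Hba-a1, had 110 UMIs, and the split of reads between the copies is uncertain. The embryonic genes were close to absent, with 10 UMIs of Hbb-y, 4 of Hbb-bh1 and 1 of Hba-x. Within the adult β-globins Hbb-bt took a median of 18.8% over the 319 barcodes with at least 100 haemoglobin UMIs, which include 101 of the 110 in the lower tercile, and this share was 16.6%, 19.1% and 19.6% in the lower, middle and upper tercile of the haemoglobin share.

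Against the remaining barcodes, many genes for haem, iron, the membrane and cell division were higher in erythroid barcodes. A gene was compared where both groups together held at least 20 UMIs, and called where its CPM was at least 4-fold higher or lower. Of the 14989 genes compared, 7.9% were called higher and 16.5% lower, and the median log2 ratio was -0.06. With all UMIs, haemoglobin included, as the denominator the median moved by a further -0.90, and counts of a list against the remaining barcodes that changed by over 1.5 times are given on that scale too. Because the rule chose the cells by genes of this programme, the counts below describe the population and support no inference.

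Of the 16 haem synthesis genes compared, 13 were higher and 1 was lower, with a median log2 ratio of 4.39. Ferrochelatase (Fech), which inserts the iron, was 53.1-fold higher (95% interval 48.3 to 58.4). The lower gene was Alas1, the housekeeping form of the first enzyme, with 4 UMIs or 14.7 CPM against 63.6 CPM in the remaining barcodes. This call was lost when barcodes were thinned to 500 UMIs, with no neuronal or no progenitor gene allowed and with the whole interval past the ratio. Alas2, the erythroid form, was used by the rule and is counted among the 13.

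Of 17 iron genes, 11 were higher and 0 were lower, with a median log2 ratio of 2.77. The higher and lower genes were 6 and 1 with all UMIs as the denominator. Mitoferrin 1 (Slc25a37), which carries iron into mitochondria, was 178-fold higher (160 to 198) at 3750 CPM. The transferrin receptor Tfrc was 19.0-fold higher (17.3 to 20.9) and the ferritin heavy chain Fth1 was 4.09-fold higher (3.95 to 4.24), a call lost with all UMIs as the denominator.

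Of 12 membrane skeleton genes, 8 were higher and 0 were lower, with a median log2 ratio of 2.46. Only 4 were higher with all UMIs as the denominator. The band 4.2 gene Epb4.2 was 511-fold higher (353 to 762). Tropomodulin Tmod1 was 5.33-fold higher (4.61 to 6.13), a call lost with all UMIs as the denominator. β-actin (Actb) had a ratio of 1.36 (1.28 to 1.43), and its log2 ratio of 0.44 turned to -0.46 on that scale.

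Surface and transport genes were higher in 20 of 24 cases and lower in 1, with a median log2 ratio of 3.92, and 2 were lower with all UMIs as the denominator. The anion exchanger band 3 (Slc4a1) was 497-fold higher (428 to 581) at 3790 CPM. Icam4 and Kel, both used by the rule, had ratios of 3708 and 1827. The lower gene was the adhesion receptor Cd44, with 6 UMIs or 22.0 CPM against 179 CPM, a call lost with the whole interval past the ratio.

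Of 22 transcription factors of the erythroid programme, 16 were higher and 1 was lower, with a median log2 ratio of 5.54, and 3 were lower with all UMIs as the denominator. Klf1, which activates adult globin, stood at 1060 CPM and was 835-fold higher (584 to 1229). Gata1 was 404-fold higher (239 to 719) at 271 CPM. Nfe2 and Sox6, which act later in the programme, were 225-fold (157 to 327) and 209-fold (158 to 279) higher. The lower factor was Runx1, with 8 UMIs or 29.4 CPM against 121 CPM. This call was lost with 3 of 6 rule genes required, with Alas2 left out of the rule, with no progenitor gene allowed, without the 8 barcodes with many markers of other cells and with the whole interval past the ratio.

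Signalling by erythropoietin, the hormone of red cell production, was a mixed list, with 3 of 13 genes higher, 3 lower and a median log2 ratio of -0.69. The higher and lower genes were 2 and 6 with all UMIs as the denominator. The receptor Epor was 211-fold higher (122 to 379), on 43 UMIs. The kinase Pim1 and the survival gene Bcl2l1 were 16.3-fold (13.0 to 20.2) and 6.57-fold (4.97 to 8.54) higher, and the call of Bcl2l1 was lost with all UMIs as the denominator. The stem cell factor receptor Kit, Stat5b and Socs1 were the lower genes, with 1 UMI each. No direction is given for these 3 genes, since Socs1 turned to 0.44 on the log2 scale when thinned, Stat5b turned to 0.41 with no neuronal gene allowed, and 0 genes of the list were called lower with no neuronal gene or with the whole interval past the ratio.

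Redox and metabolic genes were higher in 9 of 16 cases and lower in 1, with a median log2 ratio of 3.24, and 3 were lower with all UMIs as the denominator. Glutathione peroxidase 1 (Gpx1) had the most UMIs of any gene outside haemoglobin, ribosomal protein and mitochondrial genes, with 5324, and was 52.4-fold higher (50.7 to 54.2). Carbonic anhydrase 2 (Car2) had 4257 UMIs and was 192-fold higher (182 to 202). The glycolytic enzyme Aldoa was the lower gene, at 165 CPM against 1660 CPM.

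Genes of cell division were high as well. All 22 genes of the G2 and M phases were called higher, with a median log2 ratio of 5.92, and 19 of 20 S phase genes, with a median of 4.62. Mki67, a marker of cycling cells, had a UMI in 82.9% of erythroid barcodes against 2.54% of neurons and stood at 5617 CPM, 233-fold above the remaining barcodes (212 to 256). Of 15 chromatin genes, 7 were higher and 1 was lower, and Hmgb2 stood at 3555 CPM. On the scale of all UMIs 2 chromatin genes were higher and 2 lower, so no direction is given for this list.

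**Figure D2:**
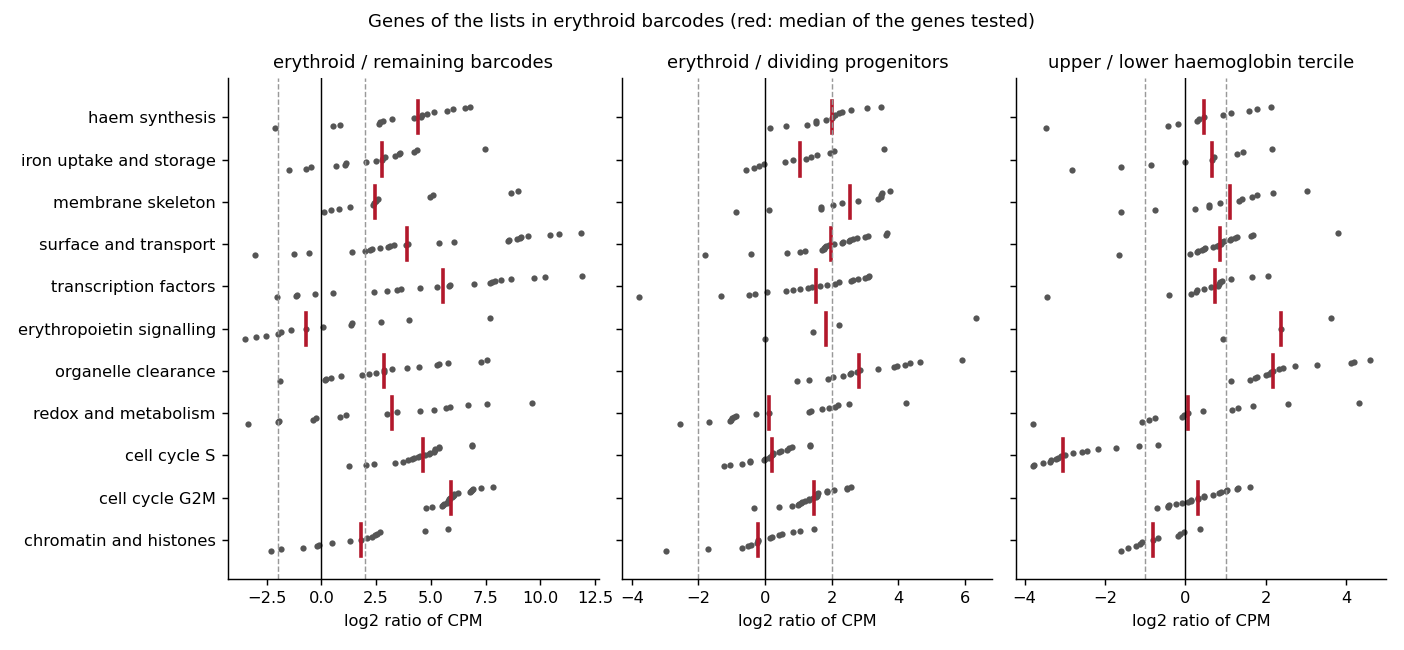
Log2 ratios of CPM (x axis) for the genes of 11 lists (rows), as erythroid over remaining barcodes, erythroid over dividing progenitors, and upper over lower tercile of the haemoglobin share. Points are genes with at least 20 UMIs over both groups, a group at 0 being set to 3 counts, red lines are medians and dashed lines the limits of 4-fold or, for the terciles, 2-fold. S phase genes lie far above 0 in the first panel, around 0 in the second and below 0 in the last, with medians of 4.62, 0.20 and -3.04.

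Outside the lists, the 15 genes with the largest ratios to the remaining barcodes, among those with at least 50 UMIs, were Cldn13, Gm867, Ctse, Btnl10, Apol11b, Slc38a5, Slc43a1, Tspan33, Rab3il1, Hist1h2ak, Tnfrsf14, Slfn14, Rbm38, Slc16a10 and Pdzk1ip1. Their ratios lay between 166 and 758. Cldn13, a claudin, reached 1104 CPM against 1.46 CPM, and the protease cathepsin E (Ctse) 2176 CPM against 3.73 CPM. Ctse had a UMI in 71.6% of erythroid barcodes and 0.583% of neurons. Of these 15 genes, 12 had a RefSeq promoter, and GATAA or TTATC lay in 5 of their 17 promoters, near the 25.4% of all promoters.

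The dividing progenitors were barcodes with at least 2 of the 5 progenitor genes and at most 2 neuronal genes, and 69 of the 148 also had at least 2 of the 6 erythroid genes. Precursor B cell genes had a UMI in 12.2% of them and summed to 530 CPM, against 58.7 CPM in erythroid barcodes. Of these genes 4 of the 5 compared were called lower in the erythroid barcodes, and the part of such cells in this comparison was not tested. Of the 4530 genes compared with them, 8.96% were called higher in erythroid barcodes and 9.12% lower, with a median log2 ratio of -0.22. The progenitor genes kept cells apart by the rule, so Car1 at 341 CPM against 2010 CPM in progenitors is a description.

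Genes of the membrane skeleton and of organelle clearance were also compared with the progenitors. The skeleton list had 8 of 12 genes higher and 0 lower, with a median log2 ratio of 2.55, and band 4.1 (Epb4.1) was 13.6-fold higher (9.77 to 19.4). The clearance list had 13 of 16 higher and 0 lower, with a median of 2.81. Ube2c, a mitotic ubiquitin enzyme, is in both the clearance and the G2 and M phase list, and without it clearance had 12 of 15 genes higher and a median of 2.86. On the scale of all UMIs 5 of 12 skeleton genes and 8 of 16 clearance genes were higher. Of the haem genes 8 of 14 were higher, of the surface genes 11 of 22 and of the transcription factors 8 of 20, with 1 lower. These lists hold 1, 3 and 2 of the rule genes, and with all UMIs as the denominator the higher genes were 2 of 14, 4 of 22 and 3 of 20, with 1 surface gene and 2 factors lower. The factor lower on the scale without haemoglobin was Bcl11a, a repressor of embryonic globin, with 3 UMIs or 11.0 CPM against 151 CPM. Compared only with the 69 progenitor barcodes that had at least 2 erythroid genes, clearance had 12 of 16 genes higher and the skeleton 5 of 12, whereas the haem list had 2 of 14, the surface list 4 of 21 and the transcription factors 4 of 19. Of all 3480 genes compared there, 9.71% were higher and 5.72% lower. The 69 barcodes were chosen by rule genes that belong to the haem, surface and transcription factor lists. The contrast of these lists with clearance and the skeleton is therefore a description.

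S phase genes differed little from the progenitors, with 0 of 19 called in either direction and a median log2 ratio of 0.20. Pcna, the sliding clamp of DNA replication, stood at 1412 CPM against 1063 CPM, a ratio of 1.33 (1.15 to 1.53). The log2 ratio of Pcna, 0.41, turned to -0.40 with all UMIs as the denominator, and the summed log2 ratio of the list turned from 0.39 to -0.42. Of 22 G2 and M phase genes 4 were higher, and these were Ube2c at 5.96-fold (5.16 to 6.91), Mki67 at 5.56-fold (4.96 to 6.24), Nusap1 at 5.51-fold (4.30 to 7.14) and Aurka at 4.24-fold. The ratio of each of the 4 fell under 4 when all UMIs, haemoglobin included, were the denominator. Of 82 ribosomal protein genes 0 were higher and 6 lower, with a median log2 ratio of -1.54. The lower genes were 72 with all UMIs as the denominator, 78 at a ratio of 2 and 46 when no progenitor gene was allowed in the erythroid barcodes. Over all 4530 genes 413 were lower in the main comparison, 1013 with all UMIs and 1211 at a ratio of 2. With no progenitor gene allowed 581 of 4083 were lower.

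Outside the lists, the 5 genes with the largest ratio to the progenitors were Mal, Tmcc2, Slfn14, Apol11b and Mobp. Tmcc2 was 63.7-fold higher (34.3 to 134) at 1750 CPM. Slfn14, an endoribonuclease that cuts ribosomes and RNA, had 134 UMIs in erythroid barcodes and 0 in progenitors, at least 59.7-fold higher against a floor of 3 counts over the group. Mal and Mobp are genes of myelin, with 52 of 54 and 58 of 61 UMIs in the barcodes of the lower tercile of the haemoglobin share. Mal had 1 UMI in progenitors. Its log2 ratio between the terciles, -2.97, turned to 0.19 with 3 of 6 rule genes required and 0.20 with Alas2 left out. The ratio of Mal to the progenitors is therefore not read as a difference of erythroid cells. The log2 ratio of Mobp, 5.35, turned to -0.24 with 3 of 6 rule genes required and -0.29 with Alas2 left out of the rule, so no direction is given for it. Without the 8 barcodes with many markers of other cells it was 1.08, and 0 of 2 glial genes compared were called higher than in progenitors, against 3 of 3 with them.

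To see how the population varied within itself, the 328 barcodes were ordered by haemoglobin share and divided into a lower tercile of 110 (0.262% to 44.3%), a middle tercile of 109 (44.3% to 56.5%) and an upper tercile of 109 (56.5% to 82.6%). The terciles are ranges of a continuous measure, with 26 and 38 barcodes within 2 percentage points of the cuts. They had similar totals, at medians of 1357, 1428 and 1394 UMIs, but UMIs outside haemoglobin fell from a median of 1027 to 712 and 500, and genes from 650 to 449 and 303. Thinned to 300 UMIs outside haemoglobin per barcode, the medians were still 243, 228 and 208 genes. The 8 barcodes with many markers of other cells lay 6, 1 and 1 in the lower, middle and upper tercile. Glial genes summed to 6135, 506 and 559 CPM, and 3 of 3 were called lower in the upper tercile, against 0 of 2 without those 8 barcodes. Neuronal genes summed to 751, 1398 and 1525 CPM. Pituitary genes summed to 12032, 6494 and 7863 CPM, while their median share of UMIs outside haemoglobin in single barcodes was 0.110%, 0.338% and 0.552%. The part of these transcripts in the differences below was not tested.

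Between the upper and lower tercile, genes with at least 20 UMIs over both were called at a 2-fold ratio. Of the 1755 genes compared, 17.4% were called higher in the upper tercile and 38.3% lower, with a median log2 ratio of -0.52. With all UMIs as the denominator the median moved by a further -1.06, so an uncalled gene with a small positive ratio here turns negative under that scale.

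Genes of organelle clearance and reticulocyte maturation were high where haemoglobin was high. All 15 of those compared were called higher, with a median log2 ratio of 2.18, and 10 of the 15 were still higher with all UMIs as the denominator. The list summed to 6066, 15844 and 30809 CPM in the lower, middle and upper tercile, a ratio of 5.08 between the ends. Without Ube2c, which the G2 and M phase list holds as well, all 14 were higher and the sums were 4289, 10193 and 25369 CPM, a ratio of 5.91. In single barcodes its median share of UMIs outside haemoglobin was 0.642%, 1.43% and 3.01%, and the upper quartile of the lower tercile, 0.904%, lay under the lower quartile of the upper tercile, 1.85%. Over the 328 barcodes the rank correlation with the haemoglobin share was 0.77, given as a description because both come from the same libraries.

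Xpo7, an exportin known for its part in nuclear condensation, went from 161 CPM (95% interval 99.6 to 246) to 301 CPM (195 to 445) and 3847 CPM (3363 to 4381). The ubiquitin enzymes Ube2o and Ube2h, of which the first remodels the reticulocyte proteome, were 17.4-fold (7.90 to 45.3) and 18.1-fold (7.18 to 58.8) higher in the upper tercile. Bnip3l, the receptor for mitochondrial clearance, had 383, 1181 and 2542 CPM. Trim10, a RING protein of late erythroid cells, had 682, 1831 and 3678 CPM, and the poly(A) polymerase Fam46c 299, 904 and 2864 CPM. For Xpo7, and for Ube2h with 5, 9 and 41 UMIs, the intervals of the lower and middle tercile overlap.

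Other genes outside this list were higher in the upper tercile as well. Bpgm, which makes the regulator of oxygen release 2,3-bisphosphoglycerate, had 230, 422 and 4576 CPM, 19.9-fold higher in the upper tercile (13.6 to 30.1). Tmcc2 had 322, 1181 and 5711 CPM, and Slfn14 130, 301 and 1559 CPM. For Bpgm and Slfn14 the intervals of the lower and middle tercile overlap. The poly(A)-binding protein Pabpc1 had 6051, 11687 and 37792 CPM, a ratio of 6.25 (5.76 to 6.78). Bcl2l1 was 12.3-fold (5.45 to 32.7) and Pim1 5.23-fold (3.12 to 9.04) higher, with 7, 14 and 39 UMIs of Bcl2l1 and 22, 24 and 52 UMIs of Pim1 in the lower, middle and upper tercile.

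**Figure D3:**
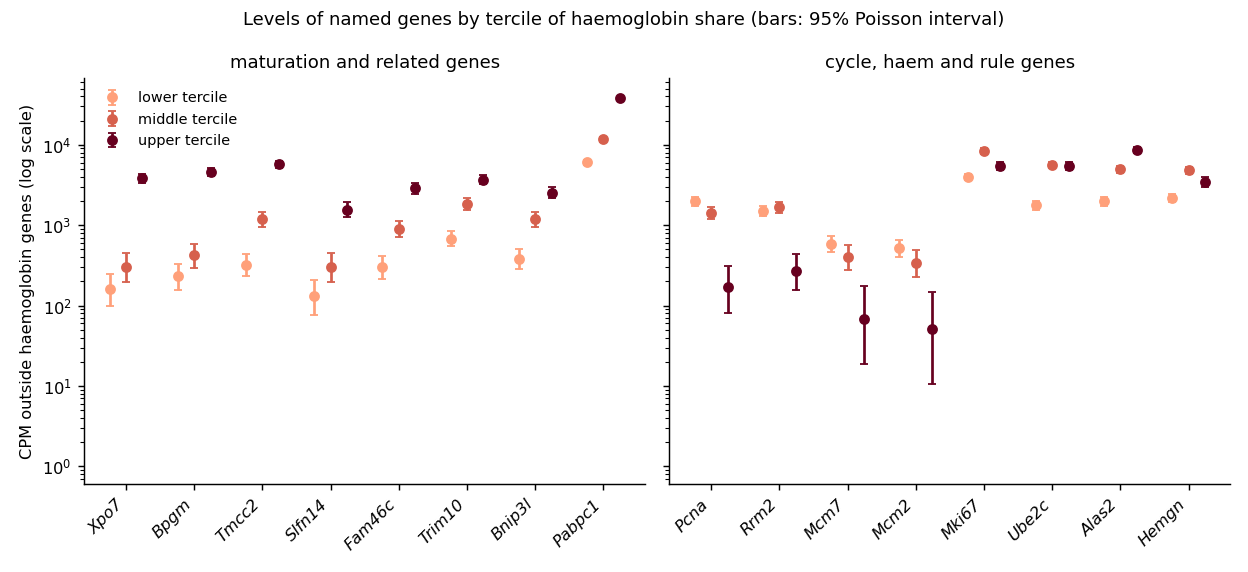
CPM (y axis, log scale) of 16 genes in the lower, middle and upper tercile of erythroid barcodes by haemoglobin share, with 95% Poisson intervals. Xpo7 and Bpgm stay low in the middle tercile and reach 3847 and 4576 CPM in the upper tercile, while Pcna drops from 1968 to 169 CPM.

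S phase genes went the other way. Of 16 compared, 15 were called lower in the upper tercile and 0 higher, with a median log2 ratio of -3.04. With all UMIs as the denominator all 16 were lower, on a scale where 1131 of all 1755 genes were lower. The list summed to 8961, 6663 and 1339 CPM. Pcna had 1968, 1422 and 169 CPM, the replication helicase gene Mcm7 582, 398 and 67.8 CPM, and Mcm6 60 UMIs in the lower tercile and 0 in the upper. The ribonucleotide reductase gene Rrm2 kept its level into the middle tercile, at 1486 and 1663 CPM, before 271 CPM in the upper. An S phase UMI was present in 90.9%, 77.1% and 30.3% of barcodes, and in 80.0%, 63.3% and 19.3% (exact binomial 95% interval 12.3 to 27.9) after thinning to 300 UMIs. S phase transcripts were thus common in the lower and middle terciles and infrequent in the upper tercile.

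G2 and M phase genes did not follow S phase. Their sum was 15180, 33579 and 22963 CPM, highest in the middle tercile. Of 21 genes compared, 5 were called higher in the upper tercile than in the lower and 0 lower, with a median log2 ratio of 0.32. The 5 were Ube2c at 3.06-fold (2.58 to 3.64), Cenpf, Nusap1, Plk1 and Cenpa. Plk1 and Cenpa turned to the lower side with all UMIs as the denominator. The summed log2 ratio of 0.60 turned to -0.46 with all UMIs as the denominator, where 0 genes were higher and 6 lower, so no direction between the ends is given for this list. In single barcodes the median share was 1.53%, 3.04% and 1.60%, and the upper tercile was the widest by its quartiles, 0.458% and 3.62%. The rank correlation with the haemoglobin share was 0.05.

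**Figure D4:**
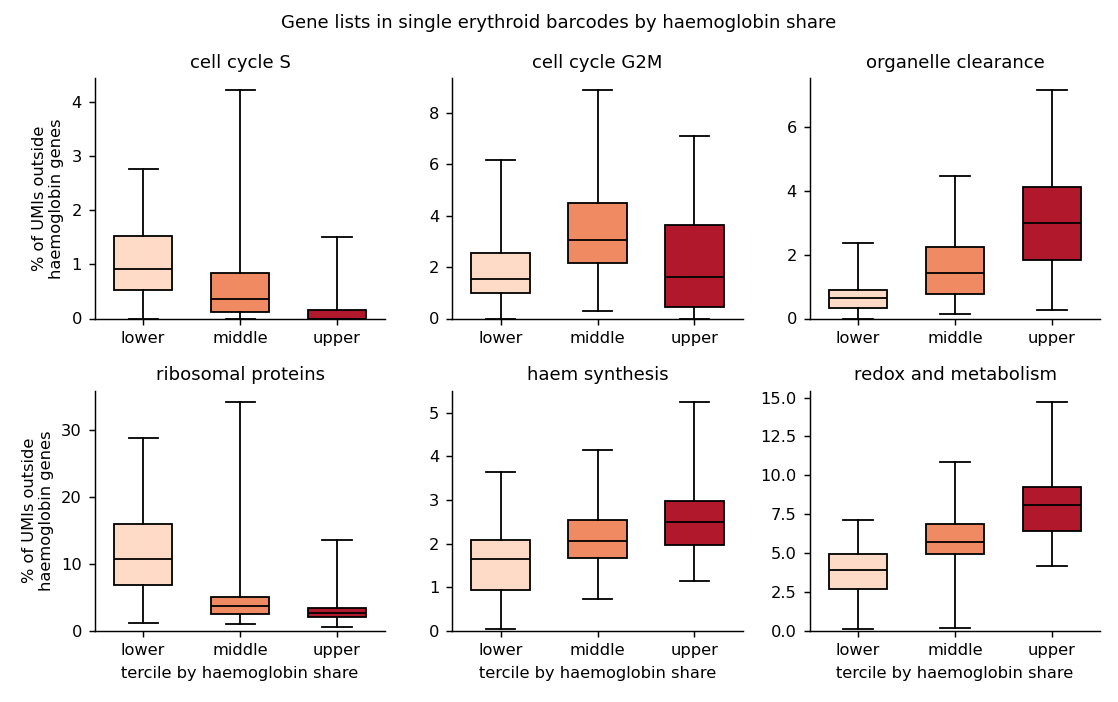
Share of UMIs outside haemoglobin genes (y axis, %) taken by 6 gene lists in single erythroid barcodes of the lower (110), middle (109) and upper (109) tercile by haemoglobin share. Boxes give the median and quartiles and whiskers the lowest and highest barcode, with medians of 0.911%, 0.358% and 0% for S phase and 0.642%, 1.43% and 3.01% for organelle clearance.

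Ribosomal protein genes, 87 in the table, took 12.3%, 4.46% and 3.00% of UMIs outside haemoglobin in the lower, middle and upper tercile, and 76 of 78 compared were called lower. Most of this step lay between the lower and the middle tercile. Mitochondrial transcripts took 1.87%, 1.98% and 2.70%, and their members moved apart. The ribosomal RNA mt-Rnr2 had 7950, 15398 and 21794 CPM, whereas the messenger RNAs mt-Cytb and mt-Nd1 had 3715, 1133 and 1407 CPM and 2083, 482 and 627 CPM. Of the 8 mitochondrial genes compared, 1 was called higher and 4 lower. The messenger RNAs mt-Co1 and mt-Nd2 were not called, at log2 ratios of -0.20 and -0.89. The highest mitochondrial share of a barcode in the lower tercile was 26.5%, against a median of 1.64%, and the part of that barcode in these sums was not tested. Against the remaining barcodes, mt-Rnr2 was likewise higher, at 13215 CPM against 2422 CPM, and mt-Cytb lower, at 2429 CPM against 4578 CPM, the latter within the 4-fold limit. The calls of mt-Rnr2, against the remaining barcodes and between the terciles, were lost with all UMIs as the denominator.

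The haem, iron, membrane, surface and transcription factor lists had positive summed log2 ratios between the terciles, from 0.51 to 0.97, and all 5 turned negative with all UMIs as the denominator, from -0.55 to -0.087. No direction is therefore given for these lists. Haem genes summed to 13495, 21506 and 25793 CPM, with 4 of 11 called higher and 1 lower. Alas2, whose UMIs took part in the rule, was among the 4 and had 1976, 4976 and 8711 CPM. Fech had 1317, 2771 and 4508 CPM. The lower gene was Tmem14c, which brings porphyrin into mitochondria, with 221 UMIs in the lower tercile and 9 in the upper, 1693 and 153 CPM. With all UMIs as the denominator 1 haem gene was higher and 3 were lower. The rule was met at a median of 1027 UMIs outside haemoglobin in the lower tercile and 500 in the upper. The part of the rule in the tercile ratios of its own genes was not tested.

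Membrane skeleton genes had 6 of 12 called higher and 1 lower. Epb4.1 was 8.13-fold higher (6.10 to 11.0), and the lower gene was the tropomyosin Tpm3 at a log2 ratio of -1.59. These counts were 2 and 2 with all UMIs as the denominator. Surface genes had 7 of 20 higher and 1 lower, and summed to 22472, 43013 and 44079 CPM. These counts were 1 and 1 with all UMIs as the denominator. Among the 7 higher genes was Kel, whose UMIs took part in the rule. The lower gene was the complement regulator Cd59a, at a log2 ratio of -1.66, which turned to 0.47 with no neuronal gene allowed. Cd36, a fatty acid receptor, had the largest ratio among them, 13.8 (4.78 to 54.7), on 4 and 25 UMIs. Of the transcription factors 3 of 14 were higher and 1 lower, against 17.4% and 38.3% of all genes, and 0 were higher and 2 lower with all UMIs as the denominator. The higher ones were Nfe2 at 4.15-fold (2.47 to 7.12), Foxo3 at 3.14-fold (1.68 to 5.98) and Sox6 at 2.21-fold (1.38 to 3.54). The lower one was the zinc finger factor Zbtb7a, with 24, 22 and 1 UMIs or 184, 265 and 16.9 CPM. The lower calls of Tpm3, Cd59a and Zbtb7a were lost with the whole interval past the ratio. Gata1 and Klf1 had ratios of 0.759 (0.359 to 1.50) and 1.23 (0.881 to 1.70), and both intervals include 1. With all UMIs as the denominator the log2 ratio of Klf1 turned from 0.30 to -0.76, and that of Gata1 went from -0.40 to -1.46, past the limit for a lower call. Chromatin genes had 0 of 11 higher and 5 lower, near the 38.3% of all genes called lower. With all UMIs as the denominator 10 were lower, as were 1131 of all 1755 genes. The histone H2afz had a ratio of 0.327 (0.199 to 0.513). Hemgn, whose UMIs took part in the rule, had 2198, 4843 and 3423 CPM, and its log2 ratio between the ends turned from 0.64 to -0.42 with all UMIs as the denominator.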

How the data were processed

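The authors deposited 1 table of UMI counts per gene and cell barcode, without normalization, for the pooled 9 Dropseq runs. Per the labels, reads were demultiplexed with bcl2fastq 2.17 and mapped with STAR 2.5.3a to mm10, and Seurat 1.4.0.16 was among the authors' tools. How reads of near-identical genes were assigned is not given in the sources used here. Barcodes were grouped by the genes with a UMI. The erythroid rule and the gene lists were chosen with earlier results of these data known. UMIs were summed over the barcodes of a group and divided by their UMIs outside 10 haemoglobin genes, with exact Poisson 95% intervals for levels and exact conditional binomial 95% intervals for ratios (scipy 1.17.1, numpy 2.4.6, pandas 2.3.3). Sequencing runs are not named by the barcodes, so n was 1 pooled sample and no test was made.

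Genes were called at a ratio of 4, or 2 between terciles of the haemoglobin share, with at least 20 UMIs over both groups. A group at 0 was set to 3 counts, and a gene at 0 could not be called higher in that group. The genes named were those of the rule, up to 6 examples of each list, the 15 largest ratios to the remaining barcodes and 5 to the progenitors with at least 50 UMIs, and genes with the most UMIs. Lists were also followed over terciles of the haemoglobin share, and genes named beyond this rule were chosen after their values were seen. The calling step was tested on simulated data for erythroid against remaining barcodes. All 100 genes set 8-fold higher and all 100 set 8-fold lower were called. So were 280 of 14715 unchanged genes, but 0 of the 2616 with at least 2000 UMIs, so a call on few UMIs can arise without a change. Alternatives were another denominator, thinning, other minimums, ratios and choices of barcodes. No doublet was removed. Promoters on chromosome 18 were left out of the motif search. The haemoglobin genes Hbb-b1 and Hbb-b2 and the stabilizing protein gene Ahsp were not analysed here.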

Additional observations from a re-analysis of the deposited data

Results flagged for a closer look

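Barcodes with fewer than 200 genes lay outside the rule, and 31 of the 523 (5.93%) had a UMI of at least 2 of the 6 erythroid genes, fewer than 2 progenitor genes and at most 2 neuronal genes, a signal in data that the comparisons did not use. Haemoglobin took a median of 84.4% of the UMIs of these 31 barcodes, with a range of 66.9% to 91.0%, against a median of 85.5% in all 523 and 51.1% in the 328 erythroid barcodes. The 31 barcodes had a median of 199 UMIs and 129 genes, the UMIs being those outside haemoglobin, compared with 720 UMIs and 453.5 genes in the erythroid barcodes. No comparison of their genes was made at this depth.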

How the results depend on the processing

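No paired analysis was possible because the barcodes do not name their run, and for the same reason no run could be left out. The setting without mixed barcodes leaves out the 8 with many markers of other cells. That setting, progenitors with 2 erythroid genes, the whole interval past the ratio and all alternatives for the terciles were chosen after seeing the data. The number of erythroid barcodes was 130 when no neuronal gene was allowed. The haemoglobin share of UMIs, 47.0% in the report, was 46.2% with Alas2 left out of the rule, 47.1% with no neuronal gene, 51.0% with no progenitor gene, 47.8% without mixed barcodes and 47.7% as a mean over barcodes.

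Against the remaining barcodes 1184 genes were called higher and 2479 lower. With all UMIs as the denominator, which moved the median log2 ratio of all genes by -0.90 here and by -0.81 against progenitors, these were 711 and 4508. The higher genes were 749 when barcodes were thinned to 500 UMIs, 776 with a minimum of 100 UMIs, 2249 at a ratio of 2 and 730 with the whole interval past the ratio. The lower genes were 4774 at a ratio of 2, 1372 with no neuronal gene and 471 with the whole interval past the ratio. Against the dividing progenitors 406 were higher and 413 lower. These counts were 170 and 1013 with all UMIs, 240 and 107 when thinned to 500 UMIs, 161 and 74 at 100 UMIs, 946 and 1211 at a ratio of 2, and 159 and 64 with the whole interval past the ratio, and 338 were higher and 199 lower than the progenitors with 2 erythroid genes.

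Between the terciles 305 genes were higher and 673 lower. These were 113 and 1131 with all UMIs, 174 and 177 when thinned to 300 UMIs, 122 and 327 at a ratio of 4, 191 and 249 with no neuronal gene and 149 and 216 with the whole interval past the ratio, and 373 were lower with no progenitor gene. Thinning and the higher minimum leave fewer genes to compare, and the cause of the other shifts was not tested.

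The summed log2 ratio of G2 and M phase genes between the terciles turned to -0.46 with all UMIs, as did Cenpa (-0.045) and Plk1 (-0.020). It was 0.31 when thinned and 0.06 with no progenitor gene. The S phase ratio stayed between -3.80 and -2.74, and that of organelle clearance between 1.29 and 2.51, under every alternative run. Of the named genes that were called, Mobp turned to -0.24 and -0.29 against progenitors with 3 of 6 rule genes and with Alas2 left out, and to 0.50 between terciles without mixed barcodes. Mal turned to 0.013, 0.19 and 0.20 between terciles when thinned, with 3 of 6 rule genes and with Alas2 left out. Against the remaining barcodes Socs1 turned to 0.44 when thinned and Stat5b to 0.41 with no neuronal gene, as did Cd59a between terciles (0.47). The other named genes that were called kept their direction. Of those compared but not called, 4 of 12 against the remaining barcodes, 6 of 38 against progenitors and 17 of 26 between terciles turned with all UMIs, and of those called 7 of 80, 18 of 49 and 25 of 54 lost the call. A level that rests on fewer than 20 UMIs has an interval several-fold wide, and depth outside haemoglobin, a median of 500 UMIs in the upper tercile, limits what could be seen there.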
